A study of Homo sapiens with 3 samples.

Results

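The subject is the set of MEIS1 peaks of CWR22Rv1-LV-MEIS1 cells that were also called after knockout of HOXB13. CWR22Rv1 is an established human prostate carcinoma line, derived from a xenograft that relapsed after castration of its mouse host. LV-MEIS1 cells express exogenous MEIS1 from a lentiviral vector and keep HOXB13, and HOXB13ko-LV-MEIS1 cells carry the same vector after CRISPR knockout of HOXB13 in a derivative that constitutively expresses Cas9, as several clones recombined into 1 pool. MEIS1 was immunoprecipitated 3 times from LV-MEIS1 cells and 2 times from HOXB13ko-LV-MEIS1 cells, each line was pooled before peak calling, and both pools were called against 1 input of CWR22Rv1 cells. A LV-MEIS1 peak was taken as retained when it overlapped a HOXB13ko-LV-MEIS1 peak by at least 1 bp. By this rule 457 of 5968 LV-MEIS1 peaks were retained (7.66%), and their partners were 456 of 2047 HOXB13ko-LV-MEIS1 peaks (22.3%). The members were thus selected on measured values, the peak calls of both lists, and pileup and fold enrichment are given only as descriptions.

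Each line has 1 pooled list, so no value below has a replicate error, and the cultures could not be compared. Shares carry 95% Wilson intervals and differences between shares 95% Newcombe intervals, with peaks as the units, and both cover counting error only. Peaks of neighbouring or duplicated genes are not independent of each other. The pools held 202428594 tags for LV-MEIS1 and 105763683 tags for HOXB13ko-LV-MEIS1, against 39102495 tags of input. The pileup at a summit, the number of overlapping extended reads after scaling of each pool to the input, was therefore ranked within its own list, with rank 1 for the highest and ties sharing the better rank.

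MEIS1 is a homeodomain protein of the TALE class, which binds DNA through the core word TGACA. It partners with PBX proteins, which are also TALE homeodomain proteins, and with HOX proteins, which bind AT-rich words and form composite sites with PBX such as TGATTTAT. HOXB13 is a HOX protein expressed in the adult prostate and a known partner of MEIS1. The comparison addresses which MEIS1 sites were called with and without that partner.

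The sequences at the summits of some retained peaks are shown first, since the words in them divide the set. Each is the 101 bp centred on the LV-MEIS1 summit, read from the plus strand of hg38. Capitals mark TGACA or a PBX-HOX composite word (TGATTGAT, TGATTTAT or TGATTAAT) on either strand, so that TGTCA is TGACA on the minus strand. The first sequences, all in introns or promoters, hold TGACA. They lie at chr12:54359284-54359384 (intron 1 of a noncoding transcript, 5.15 kb from the start of GPR84), chr7:66125452-66125552 (intron 1 of CRCP), chr12:120234869-120234969 (intron 1 of PXN), chr1:218345083-218345183 (promoter of TGFB2) and chr20:31604281-31604381 (promoter of ID1).
GPR84: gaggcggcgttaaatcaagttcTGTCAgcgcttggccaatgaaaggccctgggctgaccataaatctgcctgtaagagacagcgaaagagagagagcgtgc
CRCP: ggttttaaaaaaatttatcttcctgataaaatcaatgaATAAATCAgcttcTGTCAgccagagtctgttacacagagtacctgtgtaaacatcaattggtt
PXN: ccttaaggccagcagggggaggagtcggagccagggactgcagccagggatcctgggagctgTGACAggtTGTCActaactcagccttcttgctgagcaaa
TGFB2: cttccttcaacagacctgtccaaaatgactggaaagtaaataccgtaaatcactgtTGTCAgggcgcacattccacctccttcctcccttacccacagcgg
ID1: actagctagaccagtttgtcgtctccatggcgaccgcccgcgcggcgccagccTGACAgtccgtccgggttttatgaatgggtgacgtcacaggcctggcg

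In some retained peaks TGACA and a PBX-HOX composite word stood side by side or overlapped. Such windows lie at chr7:51606968-51607068 (a MIR element, nearest to COBL) and chr10:76114128-76114228 (intron, nearest to LRMDA).
COBL: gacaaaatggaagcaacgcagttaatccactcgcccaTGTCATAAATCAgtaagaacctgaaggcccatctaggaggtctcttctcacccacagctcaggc
LRMDA: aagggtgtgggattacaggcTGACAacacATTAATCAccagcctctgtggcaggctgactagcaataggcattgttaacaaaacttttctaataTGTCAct

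A second group of retained summits held no TGACA but a PBX-HOX composite word. They lie at chr19:50842189-50842289 (intron of a noncoding transcript, nearest to KLK15) and chr7:27165815-27165915 (promoter of HOXA9).
KLK15: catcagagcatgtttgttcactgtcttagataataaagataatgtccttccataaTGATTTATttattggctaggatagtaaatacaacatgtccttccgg
HOXA9: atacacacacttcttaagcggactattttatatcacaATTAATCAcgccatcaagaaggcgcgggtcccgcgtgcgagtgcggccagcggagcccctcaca

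The last kind of retained summit shown held neither word and lay at copies of small nuclear RNA genes. The windows lie at chr14:34556146-34556246, across the end of a U1 copy that HOMER named RNU1-3 and GENCODE lists as a pseudogene, and at chr17:43239814-43239914, next to the end of a U2 copy named RNU2-1.
RNU1-3: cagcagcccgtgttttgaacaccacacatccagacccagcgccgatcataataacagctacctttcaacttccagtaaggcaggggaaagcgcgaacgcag
RNU2-1: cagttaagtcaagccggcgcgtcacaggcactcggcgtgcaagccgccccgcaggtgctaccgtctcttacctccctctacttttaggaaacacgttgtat

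The peaks of a pair lay close together. Their summits were a median of 27 bp apart, with 138 pairs (30.2%) within 10 bp, 298 (65.2%) within 50 bp and 43 (9.41%) more than 200 bp apart. At 9 pairs the summits were identical, and the largest distance was 719 bp. The overlap had a median of 243 bp and ranged from 6 bp to 1834 bp. The HOXB13ko-LV-MEIS1 peak lay wholly inside the LV-MEIS1 peak in 247 pairs (54.1%) and the reverse held in 78 (17.1%). LV-MEIS1 peaks were the wider in 307 pairs (67.2%). Both peaks were annotated to the same gene in 434 pairs. One HOXB13ko-LV-MEIS1 peak, at chr1:16895853-16896738 beside a U1 gene, overlapped 2 LV-MEIS1 peaks, by 6 bp and 468 bp.

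Few members lay near the limit of the rule. Only 5 overlaps were shorter than 50 bp. The shortest were the 6 bp overlap beside the U1 gene, 8 bp in an intron of PPFIA3 and 42 bp at the promoter of ILF2. Just outside the rule, the LV-MEIS1 peak at the promoter of CHP1 (chr15:41230985-41231288, pileup 22.79) was separated from a HOXB13ko-LV-MEIS1 peak by 3 bp, and the next closest were separated by 23 bp (LOC101927468) and 47 bp (RNU1-2). In all, 11 peaks of the LV-MEIS1 list without a partner had a HOXB13ko-LV-MEIS1 peak within 100 bp and 67 had one within 1000 bp.

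Retained peaks were mostly high in the LV-MEIS1 list, whereas their partners were spread over the HOXB13ko-LV-MEIS1 list. The median pileup of the retained peaks was 40.18, at the 81.8 percentile of the LV-MEIS1 list, compared with 28.01 for peaks called in LV-MEIS1 only. Their partners had a median pileup of 27.73, at the 52.3 percentile of the HOXB13ko-LV-MEIS1 list, compared with 26.62 for HOXB13ko-LV-MEIS1 peaks without a partner. Of the retained peaks 180 (39.4%) were in the highest decile of LV-MEIS1 pileup, while 65 partners (14.3%) were in the highest decile of the other list. These values are a description, since pileup decides which peaks are called.

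The retained share did not fall evenly with pileup. In the highest decile of LV-MEIS1 peaks, with pileups from 47.13 to 76.11, 29.8% were retained (26.3% to 33.6%). In the next decile 9.40% were retained, and between the weakest decile and the 3 highest the share was between 3.46% and 4.29%. In the weakest decile, with pileups of at most 20.09, 7.91% were retained (6.00% to 10.4%). The 47 retained peaks of that weakest decile held TGACA at 9 summits (19.1%), compared with 43.5% of the LV-MEIS1-only peaks of the same decile and 60.6% of the retained peaks of the highest decile.

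**Figure D1:**
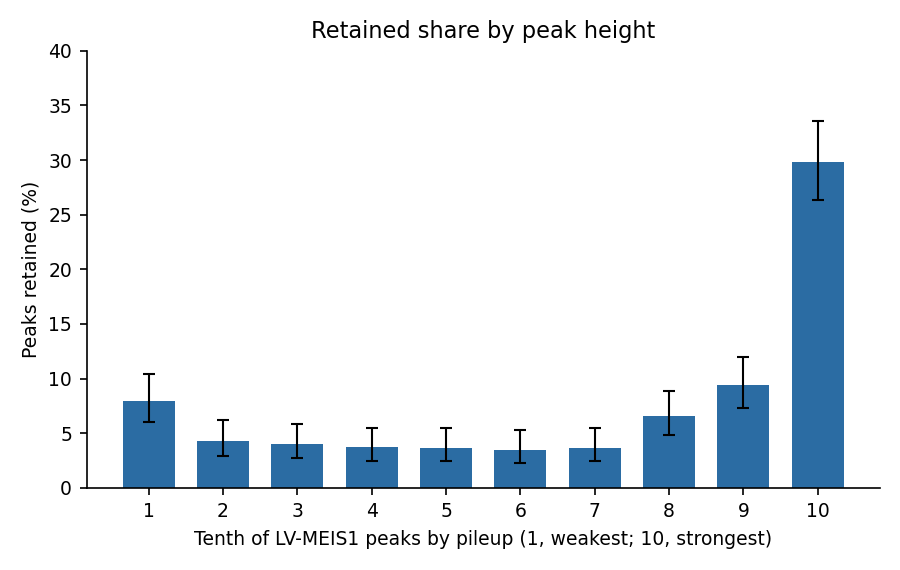
Share of LV-MEIS1 peaks retained in HOXB13ko-LV-MEIS1 cells (%), by decile of LV-MEIS1 pileup from the weakest (1) to the strongest (10). Bars are shares and error bars 95% Wilson intervals, and the highest decile stands at 29.8% while the 6 deciles above the weakest lie between 3.46% and 4.29%.

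Across the 457 pairs the pileups of the lists were weakly related, with a Spearman rho of 0.234, which is a description of pairs that share the input and the peak calls. There were 185 pairs above the median pileup of both lists and 83 below both. In 131 pairs the LV-MEIS1 peak was above the median of its list and the partner below that of its own, and in 58 the order was the opposite. These 58 pairs differed in content from the others: 23 were at small RNA genes, and 18 (31.0%) held TGACA at the LV-MEIS1 summit, compared with 60.3% of the 131. Without small RNA genes and simple repeats rho was 0.401.

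**Figure D2:**
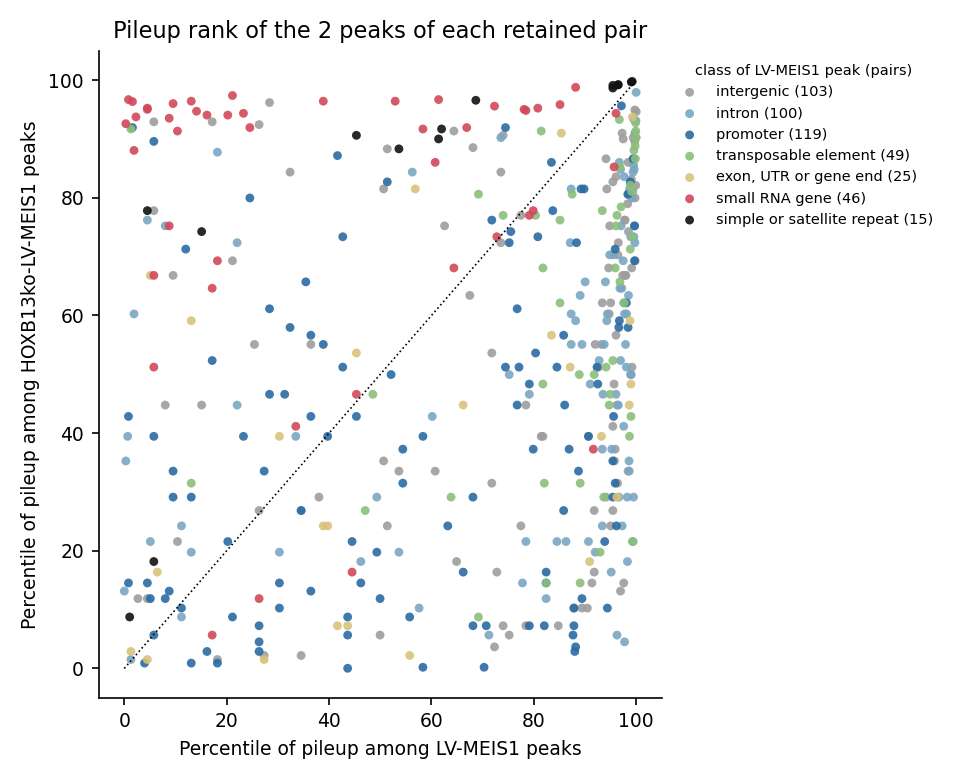
Each point is 1 of the 457 pairs, placed by the percentile of pileup of its LV-MEIS1 peak (x axis) and of its HOXB13ko-LV-MEIS1 partner (y axis), each within its own list, and coloured by class. Of the 46 small RNA genes most lie along the top from left to right and 6 lie below the middle of the y axis, and a dense column of introns, intergenic peaks and transposable elements stands at the right edge at all heights.

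Of the 10 pairs that stood highest in both lists together, 6 were telomeric repeats. At the end of chromosome 5 (chr5:9937-11770) the pileup was 66.26 in LV-MEIS1 (rank 47) and 114.98 in HOXB13ko-LV-MEIS1 (rank 5). Another telomeric repeat, at chr10:9958-10474, had 64.71 (rank 58) and 112.76 (rank 7). The peak near GPR84 (chr12:54359020-54359644), which encodes a receptor for medium-chain fatty acids, had a pileup of 75.72 (rank 2) and a partner of 84.3 (rank 43). The highest LV-MEIS1 peak of all, intergenic and nearest to PPIAL4C at chr1:149428247-149429107, had 76.11 (rank 1) and 59.52 (rank 110), and its local background of 8.0 was above the genome-wide level of 2.9. GPR84 and PPIAL4C held TGACA. The telomeric repeats did not.

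Other introns with high peaks in both lists were those of NOTCH2NL, a NOTCH2-related gene, with pileups of 73.6 (rank 4) and 54.35 (rank 141), and of CRCP with 70.31 (rank 16) and 49.54 (rank 183). The CRCP summit held ATAAATCA and TGTCA within the same window. The peak in the LTR35A element nearest to HNRNPL, which encodes a splicing factor, had pileups of 73.6 (rank 4) and 48.8 (rank 198), and its fold enrichment of 19.1 in LV-MEIS1 cells came with a local background of 2.9, at the genome-wide level. Its window held neither TGACA nor a PBX-HOX composite word. At the promoter of IL11RA, the receptor of interleukin 11, the pileups were 67.22 (rank 36) and 42.89 (rank 267).

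The 5 pairs with the largest difference in percentile in either direction were described. Those with the better LV-MEIS1 rank lay in introns and promoters, and the next in order, near AKAP6 (ranks 181 and 1768) and CWC22 (ranks 145 and 1733), were intergenic. The intron peak at MTHFD1L, a mitochondrial enzyme of folate metabolism, had pileups of 59.5 (rank 135 of 5968) and 17.75 (rank 1947 of 2047). At the promoter of EIF3K, a translation initiation factor, they were 52.93 (rank 336) and 19.23 (rank 1820), and at the promoter of TAF7, a subunit of the general transcription factor TFIID, 45.01 (rank 712) and 17.01 (rank 1982). The 5 with the better HOXB13ko-LV-MEIS1 rank were at U1 or U2 genes, while pairs further down the order also lay elsewhere, such as the promoter of TMED1 (ranks 5863 and 163). The peak at RNU1-3 had 16.81 (rank 5913) in LV-MEIS1 and 71.72 (rank 67) in HOXB13ko-LV-MEIS1, and a peak at RNU2-1 (chr17:43266728-43267023) had 16.03 (rank 5948) and 53.24 (rank 151).

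Annotation and sequence were not used by the selection and could be compared with the LV-MEIS1-only peaks. Every peak was put in 1 class, in the order small RNA gene, simple or satellite repeat, promoter, transposable element, intron, intergenic, and exon or gene end. Small RNA genes were 46 of the 457 retained peaks (10.1%) and 15 of the 5511 LV-MEIS1-only peaks (0.272%), a difference of 9.79 percentage points (7.35 to 12.9). Simple and satellite repeats were 3.28% and 0.635%, a difference of 2.65 points (1.34 to 4.72). Promoters were 26.0% of retained peaks (119) and 19.3% of the others, a difference of 6.77 points (2.81 to 11.1). Transposable elements were less frequent among retained peaks, at 10.7% against 19.1% (difference -8.39 points, -11.1 to -5.06), and so were introns, at 21.9% against 30.2% (-8.29 points, -12.1 to -4.10). For intergenic peaks, 22.5% and 26.2%, the interval of the difference contained 0 (-3.63 points, -7.41 to 0.581). Against the other list some orders were the opposite, with no interval computed. Introns were 20.8% of the partners and 5.85% of HOXB13ko-LV-MEIS1-only peaks, and intergenic peaks 23.3% and 11.2%. Simple and satellite repeats were 3.51% and 8.23%. Transposable elements were 8.77% and 33.2%, promoters 26.1% and 23.3%, and small RNA genes 11.2% and 7.29%.

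**Figure D3:**
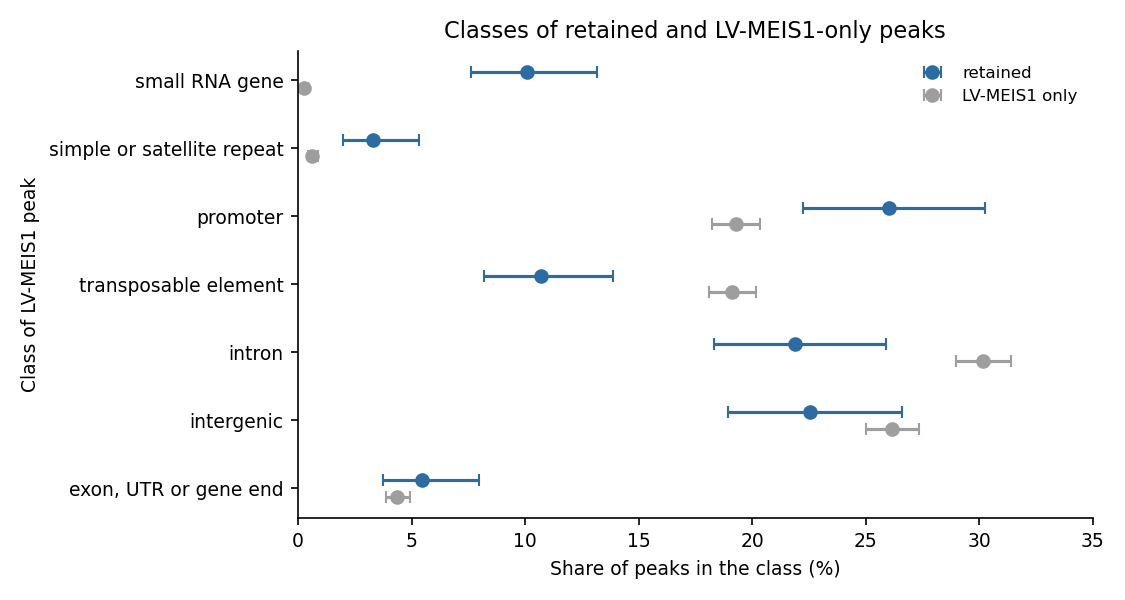
Share of retained (blue) and LV-MEIS1-only peaks (grey) in each class (%), with 95% Wilson intervals as bars. The intervals are apart for small RNA genes, simple or satellite repeats, promoters, transposable elements and introns, and meet for the other classes.

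The classes also differed in where their pairs ranked. Retained introns had a median LV-MEIS1 percentile of 94.1 and a median HOXB13ko-LV-MEIS1 percentile of 51.8. Retained transposable elements stood at 94.1 and 68.1, and intergenic peaks at 91.3 and 55.1. Promoters were lower in both lists, at 63.2 and 37.3. Small RNA genes had the opposite order, with a median LV-MEIS1 percentile of 25.4 and a HOXB13ko-LV-MEIS1 percentile of 93.1. Their pileups ran from 16.03 to 55.83 in LV-MEIS1 and from 18.12 to 93.54 in HOXB13ko-LV-MEIS1 cells.

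Retained peaks lay nearer to genes. The nearest annotated start site was a median of 6.23 kb from the summit (95% interval of the median 4.23 to 10.7 kb), compared with 24.9 kb (23.02 to 27.4 kb) for LV-MEIS1-only peaks. Of the retained peaks 170 (37.2%) were within 1 kb of a start site and 63 (13.8%) were beyond 100 kb. The windows at their summits were richer in G and C, with a median of 53.5% compared with 41.6% in LV-MEIS1-only peaks. The HOXB13ko-LV-MEIS1 peaks without a partner had a median of 56.4%.

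The TGACA shares of retained and LV-MEIS1-only summits differed by less than the counting error in this window. The word was found within 50 bp of 245 of 457 retained LV-MEIS1 summits (53.6%, 49.0% to 58.1%) and of 56.3% of LV-MEIS1-only summits (55.0% to 57.6%), a difference of -2.70 points (-7.46 to 2.01). In windows of the same length centred 500 bp to either side the word was in 18.1% and 19%. Among 35116 RefSeq promoters (GRCh38.p14), 16.5% held it in a window of that length. Within 100 bp of the summit the shares were 64.1% and 69.4%, and the interval of that difference did not contain 0 (-5.33 points, -9.99 to -0.892). The longer word TGACAG was at 33.7% of retained and 30.2% of LV-MEIS1-only summits (3.52 points, -0.836 to 8.13). Against the other list the retained peaks stood apart: TGACA was at 41.7% of the partners' own summits and at 9.68% of the HOXB13ko-LV-MEIS1 summits without an LV-MEIS1 partner, a difference of 32.0 points (27.3 to 36.8).

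The word was also nearer to the summit in retained peaks than in the HOXB13ko-LV-MEIS1-only peaks that held it. Among peaks with TGACA within 100 bp, its centre was a median of 12 bp from retained LV-MEIS1 summits, 16 bp from LV-MEIS1-only summits, 20.5 bp from the partners' summits and 40 bp from HOXB13ko-LV-MEIS1-only summits. In 177 pairs TGACA was within 50 bp of both summits, in 68 of the LV-MEIS1 summit alone, in 13 of the HOXB13ko-LV-MEIS1 summit alone, and in 199 of neither. Among introns the word was at both summits in 49 pairs and at the LV-MEIS1 summit alone in 6. Among promoters it was at both in 32 and at the LV-MEIS1 summit alone in 27.

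PBX-HOX composite words were more frequent at the partners than in the rest of the HOXB13ko-LV-MEIS1 list. They were in the window of 58 retained LV-MEIS1 summits (12.7%, flanks 1.75%) and of 11.4% of LV-MEIS1-only summits (flanks 1.42%), a difference of 1.33 points (-1.54 to 4.79). At the partners' own summits they were in 55 windows (12.1%), and at HOXB13ko-LV-MEIS1-only summits in 5 of 1591 (0.314%, flanks 0.881%), a difference of 11.7 points (9.04 to 15.1). The PBX-MEIS composite word TGATTGACA was in 10 retained windows (2.19%) and in 1.13% of LV-MEIS1-only windows, a difference of 1.06 points (0.0193 to 2.87).

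The shorter AT-rich word ATAAA, a HOX core, was less frequent in retained peaks, at 31.9% compared with 47.0% of LV-MEIS1-only summits (-15.0 points, -19.3 to -10.4). It was also less frequent in the flanks, at 23.8% and 33.7%, beside the higher GC content given above, whose part in the difference was not tested. The HOXB13 core words CAATAAA and TCGTAAA were in 6.78% and 7.78% (-1.0 points, -3.1 to 1.77). The FOXA1 words TGTTTAC and TGTTTGC, bound by a pioneer factor of the prostate, were in 11.6% and 14.2% (-2.57 points, -5.36 to 0.807). Against the other list these words were more frequent at the partners' own summits. ATAAA was at 31.4% of them and at 7.79% of HOXB13ko-LV-MEIS1-only summits (23.6 points, 19.2 to 28.1), with flanks at 23.6% and 24.3%. The HOXB13 core words differed by 4.92 points (2.99 to 7.5) and the FOXA1 words by 8.2 points (5.64 to 11.4). Of 6 words of general promoter factors, 3 were more frequent at retained LV-MEIS1 summits than at LV-MEIS1-only summits. The GC box GGGCGG was in 17.5% and 12.4% (5.15 points, 1.82 to 8.99), the ETS word CCGGAAG in 5.03% and 1.87% (3.16 points, 1.46 to 5.59) and the NRF1 word GCATGCGC in 1.31% and 0.526% (0.787 points, 0.041 to 2.32). In the flanks these words were also more frequent around retained peaks, at 8.98% and 5.02%, 1.53% and 0.617%, and 0.329% and 0.163%. The part of the surrounding sequence in the differences was not tested. The CRE word TGACGTCA, not among the 6, was in 0.875% and 0.2% (0.676 points, 0.119 to 2.03), with flanks at 0% and 0.127%. The intervals contained 0 for the NFY word CCAAT (-0.458 points, -3.85 to 3.44), the YY1 word AAGATGGC (-0.416 points, -0.722 to 0.609) and the E-box CACGTG (0.284 points, -0.852 to 2.17). The partners' summits were also set against HOXB13ko-LV-MEIS1-only summits. There the intervals contained 0 for the GC box (2.53 points, -1.05 to 6.53), the ETS word (1.87 points, -0.205 to 4.52) and the NRF1 word (-0.472 points, -1.04 to 0.585). They also contained 0 for the YY1 word and the E-box, but not for the NFY word (6.68 points, 3.53 to 10.3). A match says only that the letters were in the window.

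**Figure D4:**
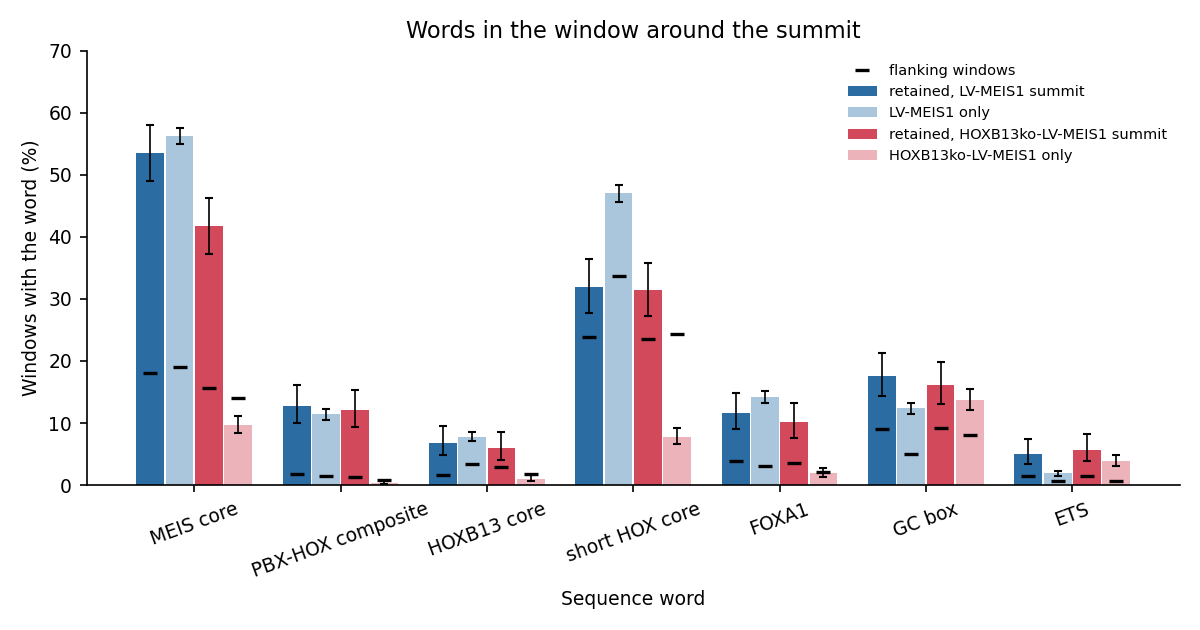
Share of 101 bp summit windows that hold each word (%), for retained peaks at the LV-MEIS1 summit (dark blue) and at the HOXB13ko-LV-MEIS1 summit (dark red) and for peaks of only 1 list (pale). Error bars are 95% Wilson intervals and black dashes the flanking windows 500 bp away, and the pale red bar of the MEIS core, 9.68%, is below its flanks.

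The retained peaks without TGACA were of unlike kinds. Outside small RNA genes and simple repeats, TGACA was at 221 retained summits and absent from 175. Of these 175, 85 were in the highest quintile of LV-MEIS1 pileup, a limit chosen after the values were seen. Among the 85, 30 (35.3%, 26.0% to 45.9%) held a PBX-HOX composite word, 52 (61.2%) held ATAAA and 7 (8.24%) a GC box, and 15 (17.6%) were promoters. The flanks of the 85 held a PBX-HOX composite word in 0.588% of windows. Among the other 90, 7 (7.78%, 3.82% to 15.2%) held a PBX-HOX composite word, 13 (14.4%) ATAAA and 28 (31.1%) a GC box, and 45 (50.0%) were promoters. The 2 groups differed by 27.5 points in PBX-HOX words (15.6 to 38.8) and by -22.9 points in GC boxes (-33.9 to -11.2). The 352 LV-MEIS1-only peaks without TGACA in the same quintile had similar shares to the 85. Among them 27.6% held a PBX-HOX composite word, 68.2% ATAAA and 8.24% a GC box, and 13.6% were promoters. The profile of the 85 was thus not particular to retained peaks.

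The PBX-HOX words stood more often in retained peaks that lacked TGACA than in those that held it, at 21.1% and 9.50% (11.6 points, 4.56 to 19). In LV-MEIS1-only peaks without TGACA they were at 15.4%, which was 5.74 points lower than in the retained ones (0.136 to 12.5). Within the highest quintile that difference was 7.74 points and its interval contained 0 (-2.79 to 19.2). Together, TGACA or a PBX-HOX composite word was at 258 of 396 retained summits (65.2%, 60.3% to 69.7%) and at 63.2% of LV-MEIS1-only summits. It was at 10.5% of HOXB13ko-LV-MEIS1-only summits.

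Within the 4 classes compared, the TGACA shares of retained and LV-MEIS1-only peaks differed by less than the counting error. The share was 49.6% and 55.6% in promoters (-6.07 points, -15.4 to 3.28), 55.0% and 56.6% in introns (-1.64 points, -11.7 to 8.04), 60.2% and 58.7% in intergenic peaks (1.46 points, -8.52 to 10.7) and 61.2% and 53.9% in transposable elements (7.28 points, -7.01 to 20). Simple and satellite repeats, for which no interval was computed, held TGACA in 0 of 15 retained and in 31.4% of 35 LV-MEIS1-only peaks. HOXB13ko-LV-MEIS1-only peaks held TGACA in 7.82% of promoters and 9.68% of introns.

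The small nuclear RNAs U1 and U2 are components of the spliceosome, and the small nucleolar RNA U3 acts in ribosomal RNA processing. Their genes have short, strong promoters and exist in near-identical copies. The class of small RNA genes also holds transfer RNA repeats and genes such as RN7SK and RMRP. Of the 61 LV-MEIS1 peaks at small RNA genes 46 were retained (75.4%), and of the 167 such HOXB13ko-LV-MEIS1 peaks 51 had a partner (30.5%). Since copies share sequence, the gene names of single U1 and U2 peaks are uncertain. The 50 bp at the summit, the length of a read, was searched in the genome, alternate contigs left out. It occurred more than once for 23 of 45 retained small RNA peaks (51.1%) and for 8 of 15 LV-MEIS1-only small RNA peaks (53.3%). Across all classes it did so for 65 of 453 retained peaks (14.3%, 11.4% to 17.9%) and 2.72% of LV-MEIS1-only peaks (2.32% to 3.19%). In every other class the share was higher among retained peaks, such as 10.8% and 2.79% of intergenic peaks. In the other list the order was the opposite, with 69 of 452 partners (15.3%) and 344 of 1568 HOXB13ko-LV-MEIS1-only peaks (21.9%). The part of such copies in the calls was not tested.

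Families of small RNA genes differed in sequence and rank. The 10 pairs classed at U2 genes had pileups from 16.03 to 29.17 in LV-MEIS1 and from 44.37 to 70.25 in HOXB13ko-LV-MEIS1 cells, and none held TGACA at either summit. The class missed some copies. Pairs at chr17:43271188-43271546 and chr17:43272873-43273100, also annotated to RNU2-1, were not in it because of their distance to the annotated start. Their windows shared sequence with the U2 copies, and their pileups were 19.12 and 53.98, and 21.63 and 53.98. The 16 pairs at U1 genes had 16.81 to 55.83 and 24.4 to 93.54. TGACA was near the LV-MEIS1 summit in 7 of the 16 and near the HOXB13ko-LV-MEIS1 summit in 1. The 5 pairs at U3 genes, annotated to SNORD3A, SNORD3B-2, SNORD3C and SNORD3D, had 30.71 to 39.6 and 42.52 to 65.07, and all 5 held TGACA at the LV-MEIS1 summit. At transfer RNA repeats all 8 LV-MEIS1 peaks were retained, with pileups from 21.83 to 39.21 and from 20.7 to 51.39, and 7 held TGACA. Most transfer RNA peaks of the HOXB13ko-LV-MEIS1 list had no partner: 14 of 102 had one (13.7%), compared with 22.3% of the whole list. A higher percentile in HOXB13ko-LV-MEIS1 than in LV-MEIS1 was found in 10 of 10 U2, 13 of 16 U1, 5 of 5 U3 and 5 of 8 transfer RNA pairs.

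Simple and satellite repeats were 15 retained peaks, 13 of them the telomeric repeat in one or another phase. The 13 had pileups from 18.74 to 66.26 in LV-MEIS1 and from 34.75 to 115.0 in HOXB13ko-LV-MEIS1 cells, and their HOXB13ko-LV-MEIS1 ranks were between 5 and 519. No retained simple or satellite repeat held TGACA. Among the 15, the pileups of the lists had a rho of 0.978, and for 11 of 14 the summit sequence had more than 1 copy in the genome.

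Among transposable elements, long terminal repeats held 23 retained peaks, 9.09% of the 253 LV-MEIS1 peaks in them, close to the 7.66% of all LV-MEIS1 peaks. LINE elements held 18 (3.27%) and DNA transposons 2 (1.18%). LINE elements were thus 3.94% of retained and 9.67% of LV-MEIS1-only peaks (-5.73 points, -7.38 to -3.41). In the HOXB13ko-LV-MEIS1 list 19 of 514 peaks in long terminal repeats had a partner (3.70%), compared with 22.3% of the whole list. For LINE elements it was 16 of 29 (55.2%). Retained peaks in long terminal repeats included those at LTR35A near HNRNPL, at a MER70B element nearest to LINC01736 with pileups of 72.24 (rank 9) and 53.61 (rank 148), and at an ERVL-B4 internal sequence nearest to PTGER4, a prostaglandin receptor, with 57.18 (rank 195) and 55.46 (rank 137).

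Retained peaks were not spread evenly over chromosomes. On chromosome 1, 106 of 671 LV-MEIS1 peaks were retained (15.8%, 13.2% to 18.8%), on chromosome 17 13.7% (9.30% to 19.7%), on chromosome 12 11% and on chromosome 7 9.26%. On chromosome 2 it was 2.85% (1.6% to 5.03%) and on chromosome 4 3.01%. Without the peaks classed at small RNA genes the share was 13.6% on chromosome 1 and 5.88% on chromosome 17. On chromosome 3 it was 7.52%, below that of all LV-MEIS1 peaks. Chromosomes 1, 3, 7 and 12 had the highest median local background, at 4.2, 4.0, 4.24 and 4.0 in scaled pileup units, compared with 2.9 on chromosome 17 and 2.9 to 3.32 on all chromosomes but these 4. The part of this background in the retained share was not tested. By the background of the peak itself, the retained share of all LV-MEIS1 peaks was 7.14% (6.06% to 8.39%) at the genome-wide level, 8.26% (7.21% to 9.45%) up to 4.1, 7.32% (6.02% to 8.88%) up to 6.1 and 7.69% (5.61% to 10.5%) above 6.1. Within the highest decile of pileup it was 49.4% (44 of 89) at the genome-wide level and 15.4% (19 of 123) above 6.1.

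**Figure D5:**
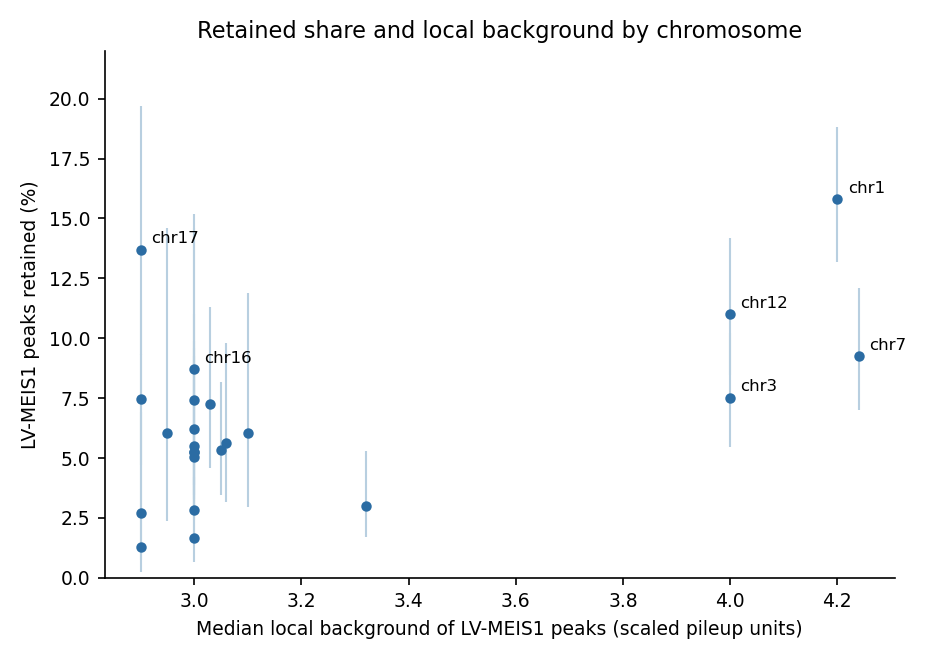
Share of LV-MEIS1 peaks retained (%) against the median local background of LV-MEIS1 peaks (scaled pileup units), 1 point per chromosome with at least 20 LV-MEIS1 peaks, with 95% Wilson intervals. Chromosomes 1, 3, 7 and 12 stand to the right, at backgrounds of 4.0 or more, and chromosome 1 is the highest at 15.8%.

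On chromosome 1 the retained share was highest around the centromere. Between 120 and 150 Mb 28 of 64 LV-MEIS1 peaks were retained (43.8%, 32.3% to 55.9%), 13 of them at small RNA genes, and in the last stretch of the long arm 19 of 80 (23.8%). Up to 120 Mb 17 of 232 were retained (7.33%). Among peaks whose summit sequence occurred once in the genome, 14% were retained on chromosome 1 (11.5% to 16.9%) and 6.79% overall.

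Named gene groups contributed few retained peaks, and their counts are read against the 7.66% of all LV-MEIS1 peaks that were retained. Each peak is counted for its annotated gene at any distance, so some of these peaks lie far from the gene. Of 10 peaks annotated to HOX genes, which set position along the body axis, 2 were retained. The peak near HOXA6 (chr7:27150824-27151233) had pileups of 65.68 (rank 51) and 37.71 (rank 405), and that at the promoter of HOXA9 had 26.66 (rank 3391) and 34.38 (rank 537), with both summits at the same base. None of 13 peaks at TALE homeobox genes, which include MEIS1 itself, was retained, and none of 13 at Wnt and Hedgehog genes. Each of these counts allows a share of up to 23.1%, an approximate limit and not a Wilson interval.

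Of 15 peaks at TGF-beta and BMP genes 2 were retained (13.3%), at the promoters of TGFB2, a TGF-beta ligand, with pileups of 42.88 and 28.84, and of ID1, a target of BMP signalling, with 49.84 and 27.36. Both held TGACA at both summits. Of 32 peaks annotated to FOX, SOX, GATA and TBX factors, 9 lay within 10 kb of a start site and 3 were retained (9.38%). The retained peaks lay at the promoter of TBX3 and 27.9 kb from it, with 40.57 and 20.7 and with 54.09 and 22.18. The last was in an L3 element 265.6 kb from the start of FOXK1. Of 4 peaks annotated to small leucine-rich proteoglycans, matrix proteins that bind collagen and growth factors, 1 was retained, in intron 2 of EPYC, with 70.31 (rank 16) and 34.01 (rank 555). It was the 1 of the 4 that lay within 10 kb of a start site. Of 11 peaks annotated to integrin and focal adhesion genes, 1 lay within 10 kb of a start site. The 1 retained peak lay beyond that distance, in intron 1 of PXN, the focal adhesion adaptor paxillin, with 44.81 and 19.23. It held 2 TGACA words in opposite directions.

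Of 36 LV-MEIS1 peaks annotated to androgen response and prostate lineage genes, 9 lay within 10 kb of a start site and 1 (2.78%) was retained. It lay in an LTR40a element 4.04 kb from KLK3, which encodes prostate-specific antigen, with pileups of 34.19 (rank 1823) and 18.86 (rank 1856). Another retained peak of the kallikrein cluster, near KLK15, had 67.61 (rank 32) and 55.83 (rank 135). Of 8 peaks at cell cycle genes 1 was retained, 13.6 kb from the start of CCND1, which encodes cyclin D1, with 26.85 and 18.49. Small RNA genes were the exception. By annotated gene name, 43 of 55 peaks were retained (78.2%), and 50 of the 55 lay within 10 kb of a start site. The class used above was defined otherwise, with 46 of 61 retained. At the promoter of EEF1A1, a translation elongation factor, the retained peak was low in LV-MEIS1 (19.12, rank 5602) and higher in the HOXB13ko-LV-MEIS1 list (47.69, rank 212), and its window held no TGACA. At EHF, an ETS factor of epithelial cells, 2 of 6 LV-MEIS1 peaks were retained, and at CDYL2 and CRCP 2 of 2.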

How the data were processed

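Reads were single-end, 50 bp. Per the labels and file headers, the authors trimmed them (Trimmomatic 0.38), removed duplicates (Picard 2.18.10), aligned them with Bowtie2 to hg38, and called peaks on the pooled immunoprecipitations with MACS2 2.1.2 at a q-value of 0.01, reads extended to 200 bp. The deposited signal is the scaled pileup at the summit. The deposited fold enrichment is a ratio to local background, with 1 added to both. The deposited p-value and q-value are −log10 values. The authors annotated summits with HOMER 4.9.1.

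Lists were joined by 1 bp overlap. Local background was computed as pileup plus 1, divided by fold enrichment, minus 1. Words were read from hg38 and gene positions from GENCODE release 44. No test was run, as each line has 1 list. Members, gene lists and words were chosen with earlier results of these data known. Named pairs were those with the best joint rank (overall and per class), the largest rank differences, the shortest overlaps or adjacent MEIS and HOX words. Pairs of genes of the lists or of genes with 3 or more retained peaks were also named. HOXA9, EPYC, PXN, RNU1-1, EEF1A1, HNRNPL and MEIS1 were picked by name, and EEF1A1 was named by that rule alone. AKAP6, CWC22 and TMED1 lay outside these rules. The sequences shown and CDYL2 and EHF were picked after their values were seen. Overlap and interval code was tested on simulated data. Python 3.11.15, pandas 2.3.3, scipy 1.17.1 and pysam 0.24.0 were used.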

Additional observations from a re-analysis of the deposited data

How the results depend on the processing

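The retained share of LV-MEIS1 peaks, 7.66%, was 6.4% with summits within 100 bp, 6.07% with an overlap of 50% of both peaks, 6.91% with a −log10 q of at least 5, 6.19% with a fold enrichment of at least 5, and 6.59% without small RNA genes and simple repeats, an alternative chosen after seeing the data. The share of HOXB13ko-LV-MEIS1 peaks with a partner, 22.3%, was 18.7% and 17.7% under the summit and 50% rules. The median LV-MEIS1 percentile of retained peaks was 87.3 with summits within 100 bp and 87.1 without small RNA genes and simple repeats. The share of retained peaks that HOMER annotated to a promoter, 29.1% (26.0% by the ordered classes, which take small RNA genes and repeats first), was 21.9% at a fold enrichment of at least 5 and 37.2% when counted within 1 kb of a start site. The TGACA share was 41.4% within 25 bp, 64.1% within 100 bp, 33.7% for TGACAG and 41.7% at the partner's summit. The difference in TGACA between retained and LV-MEIS1-only peaks turned from -2.70 points to 0.0756 points within 25 bp and 3.52 points for TGACAG, and within 100 bp it was -5.33 points (-9.99 to -0.892). The causes were not tested. Gene names fell from 407 to 222 within 10 kb of a start site. Leaving out a replicate was not possible, since each line has 1 pooled list. No paired analysis was possible because the result comes from no test.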
